A study of Mus musculus with 29 samples.

Results

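The 9 genes described here encode enzymes and receptors of the prostaglandin and lipoxygenase pathways, and they were taken by symbol from a count table of 24421 genes: Ptgs1, Ptgs2, Ptges, Ptgds, Ptger2, Ptger4, Alox5, Alox15 and Hpgd. All 9 were present and all 9 passed the filter on low counts in every comparison. They were measured by bulk RNA-seq in 29 libraries, 1 per mouse, in a model of gastric cancer peritoneal dissemination. Female C57BL/6J mice, 5 to 6 weeks old, received YTN16 cells, a mouse gastric cancer line, into the peritoneal cavity on day 0, and then antibodies or PBS by the same route on days 5, 8 and 12, with further doses on days 21 and 28 in the mice kept to day 35. Every group therefore carried the YTN16 inoculum, the untreated mice included. On day 21 there were 5 untreated mice and 5 given anti-PD1 plus anti-CTLA4 (dual ICI). On day 35 there were 5 untreated mice, 5 given anti-PD1, 4 given anti-CTLA4 and 5 given dual ICI. The dual ICI mice of day 35 were divided into 2 uncured mice (1 and 5) and 3 cured mice (2, 3 and 4) by the mouse numbers in the study's text, on the assumption that these are the replicate numbers of the sample titles, so all 5 together are also given. Of the anti-PD1 mice 1 was cured as well, and the sources used here do not say which.

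Prostaglandins and leukotrienes are made from arachidonic acid that phospholipases release from membranes. The cyclooxygenases Ptgs1 (COX-1, made in many tissues at rest) and Ptgs2 (COX-2, induced by cytokines and growth factors) form the precursor that terminal synthases turn into prostaglandin E2 or D2, and Hpgd inactivates prostaglandin E2. In tumors prostaglandin E2 is known for dampening T cells, NK cells and dendritic cells through the receptors encoded by Ptger2 and Ptger4. The lipoxygenases Alox5 and Alox15 open the other branch, which leads to leukotrienes and to lipoxin-type and other hydroxylated products.

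The cyclooxygenase pair is shown here by the sequence that precedes each gene, because per kilobase Ptgs1 exceeded Ptgs2 in every library and the pair is commonly told apart by how each gene is switched on. Ptgs2 lies on the plus strand of chromosome 1, from 150100031 to 150108227, and Ptgs1 on the plus strand of chromosome 2, from 36230426 to 36252272 (GRCm38). The lines give the 250 bases before the RefSeq start of each gene (build GRCm38.p6), with the GC box GGGCGG in capitals.
Ptgs2 chr1:150099781-150100030: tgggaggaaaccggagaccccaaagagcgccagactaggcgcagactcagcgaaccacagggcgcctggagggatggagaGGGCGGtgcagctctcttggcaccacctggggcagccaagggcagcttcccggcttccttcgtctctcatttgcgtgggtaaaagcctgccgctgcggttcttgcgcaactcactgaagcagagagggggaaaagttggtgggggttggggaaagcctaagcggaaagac
Ptgs1 chr2:36230176-36230425: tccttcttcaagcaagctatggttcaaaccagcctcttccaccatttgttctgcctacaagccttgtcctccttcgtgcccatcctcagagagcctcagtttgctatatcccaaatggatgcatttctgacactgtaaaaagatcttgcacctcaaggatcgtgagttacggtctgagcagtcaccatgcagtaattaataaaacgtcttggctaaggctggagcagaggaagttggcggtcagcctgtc
In windows from 250 bases before to 50 bases after the start, searched on both strands, GGGCGG occurred in 35.7% of 32851 promoters, and of the 8 members with a window (none was matched for Alox15) it occurred in Ptgs2, Ptges, Ptger4, Alox5 and Hpgd. The cyclic AMP response element core CGTCA (20.8% of promoters) and the E-box CACGTG (7.15%) occurred in the Ptgs2 window alone among the 8 member windows. Neither was found in the Ptgs1 window. Both lay just after the RefSeq start used here. They began 13 and 16 bases from it, so the matches share letters. The STAT-type motif TTCNNNGAA (8.3% of promoters) was found in none of the 8 windows. A match describes the letters only. Of the other members, Ptges (30889471 to 30929863) and Ptgds (25466709 to 25470046) lie on the minus strand of chromosome 2, Ptger4 on the minus strand of chromosome 15 (5206661 to 5244187) and Alox15 on the minus strand of chromosome 11 (70344152 to 70352031).

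Total counts ran from 25989217 to 31219650 per library. The tissue was the stripped peritoneum with or without nodules, although the labels call it tumor tissue, and the markers of gastric epithelium separated the mice accordingly. The summed level of a list of 20 such genes was 430 to 1802 CPM (counts scaled to a common library total after TMM normalization, in parts per 1000000) in 25 of the 29 libraries. In the 3 cured mice it was 100 to 122 CPM, of which Tspan8 alone made 84.3 to 105 CPM, and Tff1, Muc5ac, Gkn1 and Gkn2 were at 0. Anti-PD1 mouse 5 stood with them at 110 CPM. Skeletal muscle genes moved the other way, with 26.3% to 28.1% of all counts in the cured mice and 26.1% in anti-PD1 mouse 5, and untreated mouse 2 of day 35 was also muscle-rich at 25.0%. In such bulk tissue, fewer cells of a type and less RNA per cell cannot be told apart. The column names of day 21 and day 35 libraries carry separate number series, and the labels do not say what the numbers stand for. Day and any batch that goes with it cannot be told apart either.

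Per kilobase of exon, a scale on which genes can be compared, Ptgs1 had the highest mean of the 9 over all libraries at 13.9 ± 5.17 CPM per kb (SD, n = 29), followed by Hpgd at 8.55 ± 2.29 and Alox15 at 5.48 ± 3.78. Ptges, Alox5 and Ptger4 lay between 3.42 and 4.37, Ptgs2 and Ptgds at 2.20 and 1.95, and Ptger2 at 0.677. Apart from Ptgs1 and Hpgd, neighbours in this order differed by less than the larger of their SDs over libraries. In the cured mice the order was different: Alox15, at 11.2 ± 4.62 CPM per kb (n = 3), was the highest member, and Ptgs1 fell in with Hpgd and Ptges at 4.72 to 5.98.

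**Figure D1:**
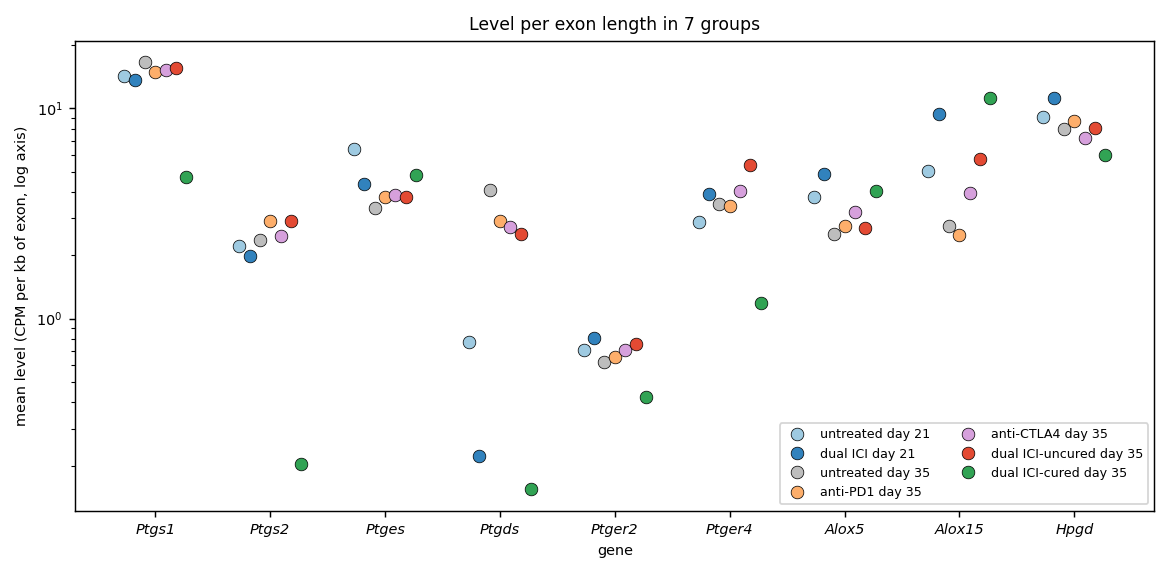
Mean level of each gene in 7 groups, in CPM per kb of exon on a log axis, with 1 colored point per group. Ptgs1 is the highest gene in every group but the cured mice, where Alox15 is highest at 11.2, and Ptgs2 and Ptgds drop to 0.204 and 0.155.

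The first comparison asks what dual ICI had changed by day 21, before tumors disappeared. None of the 9 genes passed edgeR's quasi-likelihood test at an adjusted p under 0.05, where 0.574% of 15503 genes did, and 4 of the 9 had an unadjusted p under 0.05 beside 10.7% of all genes. Prostaglandin D synthase (Ptgds) had the smallest p. Its level was 0.981, 1.01, 0.871, 2.39 and 1.15 CPM in untreated mice 1 to 5, and 0.454, 0.298, 0.231, 0.508 and 0.350 CPM in dual ICI mice. The 2 groups did not overlap, at 24 to 77 counts against 7 to 19 counts per library, and the share of all genes without overlap was not counted. The log2 fold change was -1.78 (SE 0.35) with an adjusted p of 0.0531 in edgeR, which missed the threshold, and DESeq2 gave 0.000824.

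Neither lipoxygenase passed the test on day 21. Alox5 was 12.1 to 17.5 CPM in untreated mice and 20.5, 29.9, 17.5, 9.07 and 23.3 CPM in dual ICI mice, of which mouse 4 lay below every untreated mouse. Alox15, the 12/15-lipoxygenase of eosinophils and resident macrophages, was at 7.48, 13.0, 19.7, 8.51 and 13.0 CPM in untreated mice and at 23.7, 34.3, 18.0, 10.7 and 28.4 CPM in dual ICI mice. Dual ICI mice 1, 2 and 5 lay above every untreated mouse, and mice 3 and 4 lay among them. The eosinophil marker list summed to 25.2 to 64.3 CPM in the dual ICI mice and to 10.2 to 24.3 CPM in the untreated mice. Its upper limit was dual ICI mouse 4, the lowest of its group in Alox15, where Il5ra alone made 50.5 CPM. The macrophage list was 1399 to 2490 CPM against 1239 to 1404 CPM, whereas the resident peritoneal macrophage list was 160 to 213 CPM against 183 to 233 CPM, and the part of these cells in the Alox15 values was not tested. Within each library the ratio of Alox15 to Alox5 per kb, which library scaling cannot move, was 1.72 to 2.04 in the dual ICI mice and 0.713 to 2.24 in the untreated mice.

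Both cyclooxygenases overlapped between the groups on day 21. Ptgs1 was 45.8 to 86.1 CPM in untreated mice and 36.7 to 68.4 CPM in dual ICI mice, and Ptgs2 was 3.74 to 23.7 CPM against 2.38 to 17.1 CPM. Untreated mouse 4 was the highest for both genes. The microsomal prostaglandin E synthase Ptges was 16.9 to 33.2 CPM against 14.1 to 19.4 CPM, and the receptor Ptger4 was 11.3 to 23.4 CPM against 18.0 to 30.7 CPM.

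**Figure D2:**
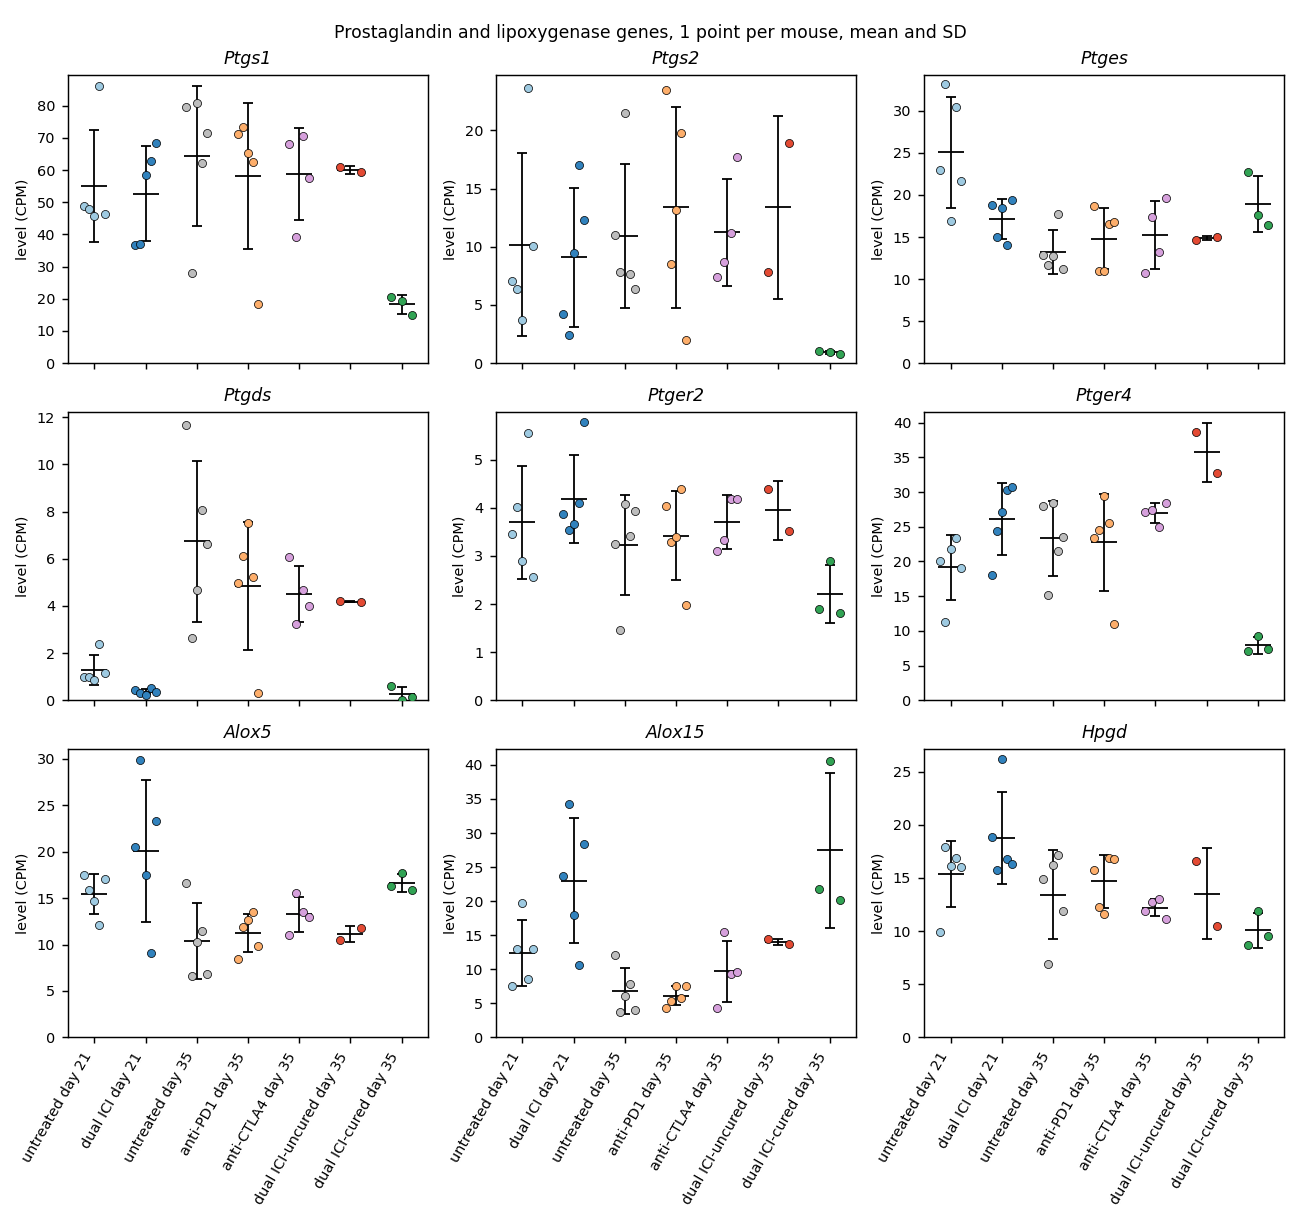
Level of each of the 9 genes in CPM (vertical axis of each panel, starting at 0) in 7 groups, with 1 point per mouse and the mean with SD as bars. The 3 cured mice lie lowest in Ptgs2 (0.780 to 1.08 CPM) and Ptger4 (7.06 to 9.25 CPM) and highest of the day 35 groups in Alox15 (20.1 to 40.5 CPM), and anti-PD1 mouse 5 is the low point of its group in Ptgs1 (18.3 CPM).

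Between day 21 and day 35 the untreated mice changed in 2 of the 9 genes, both of them prostaglandin synthases, where 10.8% of all genes tested changed. Ptgds rose by 2.39 on the log2 scale (SE 0.41, adjusted p 0.00772 in edgeR), from the day 21 values above to 11.7, 2.64, 4.69, 8.07 and 6.63 CPM on day 35. No day 35 mouse was as low as the highest day 21 mouse, and the lowest was the muscle-rich mouse 2. Ptges fell by 0.92 on the log2 scale (SE 0.20, adjusted p 0.0185), from 23.0, 33.2, 16.9, 30.5 and 21.7 CPM to 12.9, 11.7, 12.7, 17.7 and 11.2 CPM. Only mouse 4 of day 35 reached into the day 21 range, and without mouse 5 of day 35 the adjusted p was 0.0501. The mesothelium list summed to 626 to 1334 CPM on day 21 and to 523 to 1724 CPM on day 35, and its genes went different ways. The median of Krt19, a keratin that gastric epithelium also makes and the most abundant gene of the list, was 382 CPM on day 21 and 801 CPM on day 35, while that of Lrrn4 was 40.3 and 17.7 CPM and that of Gpm6a 33.8 and 11.5 CPM. The fibroblast list was 12882 to 20767 CPM on day 21 and 6400 to 10954 CPM on day 35, without overlap. With the cured mice left out (n = 26), its Spearman rho was 0.77 with Ptges and -0.57 with Ptgds. That of the mesothelium list was -0.27 and 0.79. The part of these cells in the Ptgds and Ptges values was not tested.

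On day 35 the single antibodies, the uncured mice and the cured mice were each set against the same 5 untreated mice, so those comparisons share their controls. With anti-PD1 or anti-CTLA4 alone, none of the 9 genes and 0.0% of all genes passed edgeR, DESeq2 called 0 genes, and none of the 9 had an unadjusted p under 0.05, as 1.31% (anti-PD1) and 0.811% (anti-CTLA4) of all genes did. The smallest p among the members belonged to Ptges for anti-PD1 (log2 fold change 0.16, SE 0.20, unadjusted edgeR p 0.442) and to Ptgds for anti-CTLA4 (-0.59, SE 0.37, unadjusted edgeR p 0.143). In 4 anti-PD1 mice Ptgs1 lay between 62.4 and 73.4 CPM, and in mouse 5, which had few gastric transcripts, it was 18.3 CPM. That mouse was also the lowest of its group in Ptgs2 (1.98 CPM), Ptgds (0.312 CPM), Ptger2 (1.98 CPM) and Ptger4 (11.0 CPM). Its Alox15, at 7.59 CPM, lay at the top of the range of its group, 4.36 to 7.59 CPM, and below every cured dual ICI mouse.

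The 2 uncured dual ICI mice resembled the untreated mice in the cyclooxygenases. Ptgs1 was 61.0 and 59.3 CPM and Ptgs2 was 7.84 and 18.9 CPM, both inside the untreated ranges of 28.0 to 80.9 and 6.37 to 21.5 CPM. Ptger4, the receptor through which prostaglandin E2 raises cyclic AMP in T cells and myeloid cells, was 38.7 and 32.7 CPM, above the untreated 28.0, 15.1, 28.4, 21.6 and 23.6 CPM. Alox15 was 14.4 and 13.7 CPM, above the untreated 12.1, 3.78, 6.06, 7.83 and 4.08 CPM. Only 2 mice stand against 5 here, and the share of all genes that separated in this way was not counted. Some marker lists were also higher in the uncured mice without overlap. The T cell list was 42.8 to 45.6 CPM against 14.6 to 24.8 CPM, and the B cell list 14.2 to 15.2 against 3.53 to 12.5 CPM. The gastric list was 1714 to 1802 CPM against 538 to 1575 CPM. The macrophage (1407 to 1618 against 649 to 1451 CPM) and eosinophil lists (23.2 to 34.7 against 6.70 to 25.1 CPM) overlapped. With the cured mice left out (n = 26), the Spearman rho with the gastric list was 0.76 for Ptger4 and -0.31 for Alox15. That of Alox15 with the macrophage list was 0.77. The part of these cells was not tested. Neither Ptger4 nor Alox15 passed edgeR (Alox15: log2 fold change 1.05, SE 0.41, adjusted p 0.734), and no gene of the table did (0.0% called). Of the 9, 2 had an unadjusted p under 0.05 beside 4.87% of all genes, and DESeq2 called 17 genes, none of them a member. Ptger4 shares 82 exon bases with Ttc33 on the opposite strand, and whether counting used strand is not given in the sources used here.

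The cured mice differed from the untreated mice of day 35 in 6 of the 9 genes, 4 lower and 2 higher, against a background of 44.7% of all genes (26.7% lower and 18.0% higher). On plain library totals, without TMM, 7386 genes were lower and 1187 higher in place of 4219 and 2848. The share of members called was thus not far above that of the table, and the sizes and directions are what the values describe. Each of these changes came with the near absence of gastric transcripts and the larger share of muscle given above. The mesothelium list was also lower without overlap, at 74.4 to 273 against 523 to 1724 CPM. Its gene Upk3b overlapped (15.9 to 66.0 against 25.6 to 60.3 CPM). The neutrophil list was 7.58 to 9.46 against 33.4 to 118 CPM. Over the 29 libraries the Spearman rho of Ptgs1 was 0.82 with the mesothelium list and 0.75 with the gastric list. That of Ptgds was 0.83 and 0.76. The part of these tissues in the differences was not tested.

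Both cyclooxygenases were low in the cured mice. Ptgs2 was 1.08, 0.935 and 0.780 CPM (16 to 21 counts) in the cured mice and 11.0, 7.88, 21.5, 7.67 and 6.37 CPM in the untreated mice. The groups were far apart, and the log2 fold change was -3.53 (SE 0.48, adjusted p 0.000499 in edgeR). Ptgs1 was 20.6, 19.4 and 14.9 CPM against 79.6, 28.0, 80.9, 62.2 and 71.5 CPM, with a log2 fold change of -1.80 (SE 0.32, adjusted p 0.00213). The nearest untreated mouse was the muscle-rich mouse 2. The ratio of Ptgs1 to Ptgs2 per kb within a library was 22.5 to 24.5 in the cured mice and 3.56 to 18.3 in all others. In anti-PD1 mouse 5, low in gastric transcripts as well, both genes were low, at 18.3 and 1.98 CPM.

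Ptgds and the receptor Ptger4 also fell. Ptgds was 0.618, 0 and 0.146 CPM in the cured mice, at most 12 counts in a library, with a log2 fold change of -4.71 (SE 0.81, adjusted p 0.00179 in edgeR). A count of 0 at this depth allows up to 3 counts. Ptger4 was 7.06, 9.25 and 7.37 CPM, below the lowest untreated mouse at 15.1 CPM, with a log2 fold change of -1.55 (SE 0.23, adjusted p 0.000774). Over the 29 libraries the level of Ptger4 followed the gastric list (rho 0.82) and the neutrophil list (0.79). Its rho was 0.71 with the B cell list and 0.68 with the T cell list. It ran against the adipocyte (-0.80) and muscle (-0.77) lists. With the cured mice left out (n = 26) the gastric rho was 0.76 and the neutrophil rho 0.71. The part of these cells in the Ptger4 values was not tested. The other prostaglandin E2 receptor, Ptger2, was 1.91, 2.90 and 1.80 CPM against 1.46 to 4.07 CPM and did not pass the test. Without the muscle-rich untreated mouse 2, 8 members passed, Ptger2 and Hpgd among them. Calls rose over the whole table as well, to 9388 of 15775 genes in place of 7067 of 15816.

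**Figure D3:**
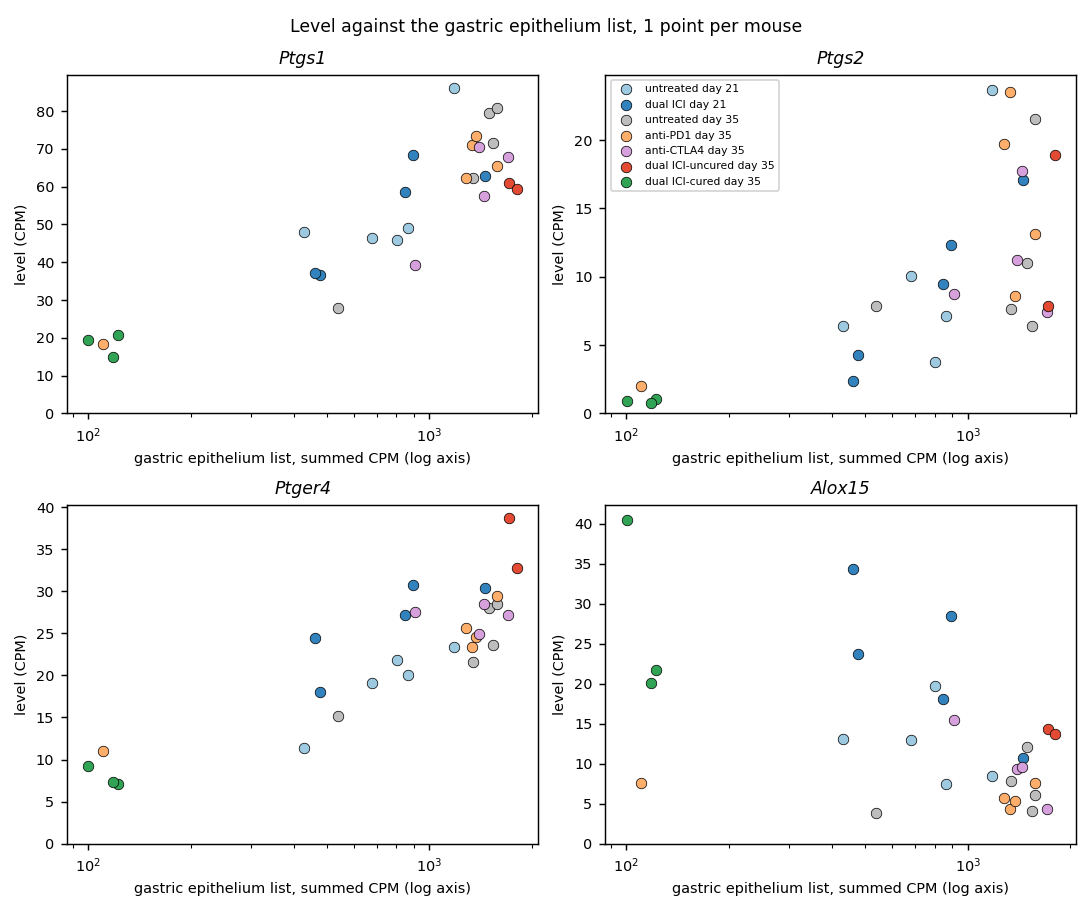
Level of Ptgs1, Ptgs2, Ptger4 and Alox15 in CPM (vertical axes) against the summed CPM of 20 gastric epithelium genes (horizontal log axis), with 1 point per mouse colored by group. Cured mice and anti-PD1 mouse 5 sit at the left with low Ptgs1, Ptgs2 and Ptger4, whereas in Alox15 the cured mice (20.1 to 40.5 CPM) lie above anti-PD1 mouse 5 (7.59 CPM).

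Alox15 went the other way. It was 21.7, 40.5 and 20.1 CPM in the cured mice, above every untreated mouse of day 35 (12.1, 3.78, 6.06, 7.83 and 4.08 CPM), and the log2 fold change was 2.04 (SE 0.38, adjusted p 0.0028 in edgeR). Anti-PD1 mouse 5 was at 7.59 CPM. On plain library totals, a scaling on which the median of all genes was -0.64, the Alox15 log2 fold change was 1.41 (adjusted p 0.0221). The eosinophil list summed to 14.3 to 24.8 CPM in the cured mice, within the untreated range of 6.70 to 25.1 CPM, but its genes did not move as one. Its receptor gene Ccr3 was 7.01 to 13.2 CPM in the cured mice against 1.06 to 4.54 CPM, and Siglecf was 4.44 to 8.07 CPM against 1.66 to 4.46 CPM. Il5ra was lower, at 1.34 to 2.71 CPM against 2.76 to 17.9 CPM, and the granule gene Epx was at most 2 counts in either group. The macrophage list was 857 to 967 CPM, within the untreated range of 649 to 1451 CPM. The part of these cell types in the Alox15 values was not tested.

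Ptges, Alox5 and Hpgd had smaller fold changes than Ptgs1, Ptgs2, Ptgds, Ptger4 and Alox15. Ptges was 22.7, 17.7 and 16.4 CPM against 12.9, 11.7, 12.7, 17.7 and 11.2 CPM, with a log2 fold change of 0.53 (SE 0.19, adjusted p 0.0449 in edgeR) that turned to -0.052 on plain library totals, and the call was lost when any of 6 of the 8 libraries was left out. Alox5, the first enzyme of leukotriene synthesis, was 16.3, 17.7 and 15.9 CPM against 16.7, 6.66, 10.2, 11.5 and 6.86 CPM and did not pass the test. Hpgd was 8.71 to 11.9 CPM against 6.90 to 17.2 CPM. The ratio of Alox15 to Alox5 per kb was 2.12 to 3.84 in the cured mice and 0.949 to 1.21 in the untreated mice, with no overlap. This was not particular to the cured mice. The uncured mice, at 1.96 to 2.28, overlapped them and also lay above the untreated range. Anti-PD1 mouse 5 was at 1.29.

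**Figure D4:**
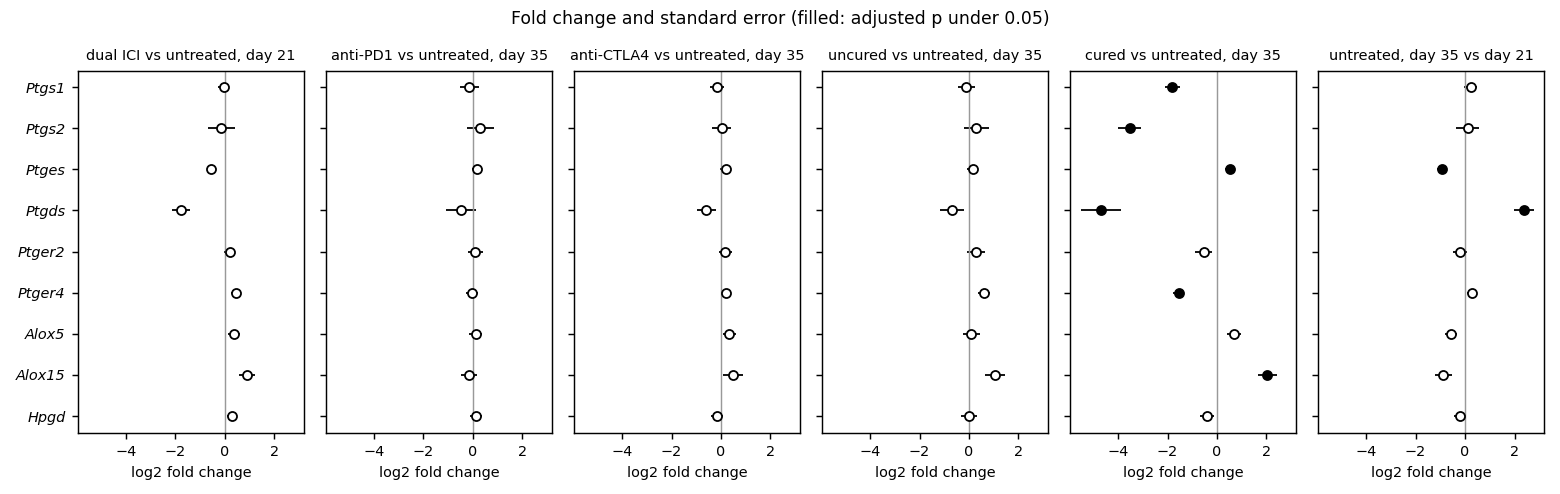
Log2 fold change (horizontal axis) with its standard error for the 9 genes in 6 comparisons, where filled points have an adjusted p under 0.05 in edgeR. Filled points appear for 6 genes in the cured mice and for Ptgds and Ptges between the days in untreated mice.

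With all 5 dual ICI mice of day 35 in 1 group, as the labels have them, none of the 9 genes passed edgeR (0.0% of all genes called) and 1 had an unadjusted p under 0.05 beside 6.87% of all genes. That gene was Alox15 (log2 fold change 1.72, SE 0.40, adjusted p 0.634), and DESeq2 gave it an adjusted p of 0.03. All 5 dual ICI mice, at 14.4, 21.7, 40.5, 20.1 and 13.7 CPM in mouse order, were above all 5 untreated mice in Alox15. How many of all genes separated in this way was not counted. In Ptgs1, Ptgs2 and Ptger4 the same 5 mice fell into separate ranges, with the 2 uncured mice above the 3 cured ones.

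The cured mice were then set against the other treated groups of day 35. Compared with anti-CTLA4, 6 of the 9 passed against a background of 62.5%: Ptgs1 (log2 fold change -1.68), Ptgs2 (-3.59), Ptgds (-4.14), Ptger2 (-0.75) and Ptger4 (-1.77) were lower and Alox15 (1.51) was higher. Compared with the uncured mice, 7 of the 9 passed against 70.0%, which is the background share. Ptger4 differed most clearly, at -2.16 (SE 0.16, adjusted p 4.46e-06 in edgeR), and Alox5 passed at 0.59, which turned to -0.19 on plain library totals. In that comparison Alox15 differed by 0.98 (SE 0.29, adjusted p 0.0143) and by 0.20 on plain library totals. Compared with anti-PD1, 5 of the 9 passed against 18.8%, namely Ptgs1 (-1.67), Ptgs2 (-3.85), Ptgds (-4.25), Ptger4 (-1.54) and Alox15 (2.17), with adjusted p between 0.0403 and 0.0454. That count was 8 without anti-PD1 mouse 5, where 10746 of 15704 genes passed. Without any other single library it was 0, and so was the count over all genes.

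An interaction term compared the change under dual ICI on day 21 with that in the uncured mice of day 35. None of the 9 genes passed (0.0% of all genes called by edgeR), and 1 had an unadjusted p under 0.05 beside 6.35% of all genes. It was Ptges, with a difference of 0.71 (SE 0.29, adjusted p 0.707).

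A wider list of 44 eicosanoid genes gives the surroundings of the 9. On day 21, 4 of its 37 tested genes passed in dual ICI mice, beside 0.574% of all genes. The list was chosen with earlier results of these data known, so this share is no test of the pathway. The epidermal-type lipoxygenase Alox12e rose by 1.79 on the log2 scale, the omega-hydroxylase Cyp4f18 by 0.83 and thromboxane synthase Tbxas1 by 0.78, and the secreted phospholipase Pla2g5 fell by 1.17. In untreated mice 4 of 37 passed between the days, a share close to the 10.8% of all genes. All 4 were lower on day 35 (Pla2g2d, Cmklr1, Cysltr1 and Ptgr2). With either single antibody, in the uncured mice, in all 5 dual ICI mice and in the interaction, 0 of the list and 0.0% of all genes passed edgeR.

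In the cured mice 19 of 38 tested genes of the list passed against untreated, 8 higher and 11 lower, beside the 44.7% of all genes. The secreted phospholipase Pla2g10 fell by 6.08 on the log2 scale (SE 0.67, adjusted p 0.000207 in edgeR), and the cytosolic phospholipase Pla2g4a, which frees arachidonic acid, fell by 2.07. The prostaglandin E2 receptor Ptger3 fell by 2.25, the formyl peptide and lipoxin receptor Fpr2 fell by 2.71 and Pla2g2e fell by 2.26. The steroid-metabolizing aldo-keto reductase Akr1c18 rose by 2.89 (SE 0.39, adjusted p 0.000492). The median of the 38 was -0.09 and that of all genes -0.05, and for the 9 members it was -0.54.

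The genes whose level over the 29 libraries was most like that of each member, by Spearman rho among 14339 genes, were Gata6 (0.94), Pdgfc and Cobll1 for Ptgs1, Tnfsf8 (0.93), Serpinb5 and Chl1 for Ptgs2, and Tmem158 (0.95), Samd14 and Smim6 for Ptgds. For Alox15 they were P2rx1 (0.94), the eotaxin receptor gene Ccr3 (0.94) and Gapt. For Ptges they were Scd1 (0.87), Asap3 and Fasn, of which Scd1 and Fasn make fatty acids. Alox5 was nearest to Lilra6 (0.83), the leukotriene B4 receptor gene Ltb4r1 (0.81) and A530064D06Rik, and Ptger4 to Donson (0.93), Arpc2 and Actr3. The likeness of Ptger2 (Zfpm2, Tbc1d2b and Ndnf, from 0.79) and Hpgd (Apol11b, Ctso and Cpq, from 0.76) was weaker. Among the members, Alox5 and Alox15 had a rho of 0.74 and Ptgs1 and Ptgs2 of 0.71. These are descriptions over libraries that share treatment, tumor load and muscle content.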

How the data were processed

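Total RNA from 29 mouse peritoneum samples was sequenced, and the authors deposited 1 table of raw read counts per gene, with no normalization. The submitters' processing notes name STAR 2.7.0f, featureCounts 1.6.4 and build mm10, whereas the study's methods name HTSeq as the counter, and the strand setting and annotation are not given in the sources used here. Whether RNA was extracted with ISOGEN or TRIzol also differs between the sources. Levels were computed as CPM on library totals scaled by TMM over all 29 libraries, and per kb with exon lengths of GENCODE vM21, in which 95.75% of symbols matched. Groups were compared with edgeR 4.0.16 (quasi-likelihood test, TMM, filterByExpr, only the groups compared in a fit, Benjamini-Hochberg adjustment over all genes tested, threshold 0.05, two-sided). SE is the absolute log2 fold change divided by the square root of F. DESeq2 1.42.0, other scalings and filters, all libraries in 1 fit, replicate blocks and leaving out each library were alternatives, and plain library totals were added after the data were seen. On simulated counts with 200 genes changed 4-fold, edgeR recovered 97.5% in the day 21 comparison. It recovered 82% in the uncured and 89.5% in the cured comparison with untreated. False calls numbered 19, 6 and 7 in that order, and changes under 4-fold were not simulated. Genes with a low mean expected count were not among those changed, so recovery for such genes was not simulated either. Each library is 1 mouse. The 9 genes and all gene lists were chosen with earlier results of these data known. All 9 genes are described, with fold changes given for those past the threshold and for the smallest p of a comparison, and up to 6 genes of the wider list are named by size of change. All columns of the table were used.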

Additional observations from a re-analysis of the deposited data

Results flagged for a closer look

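In 45 sets of 4 or 5 mice (a gene in a group), 6 had a mouse far from the others by Dixon's 95% limit, where chance flags about 1 in 20. Untreated mouse 4 of day 21 was high in Ptgs1 (86.1 CPM) and Ptgds (2.39 CPM), and untreated mouse 1 of day 21 was low in Hpgd (9.93 CPM). Anti-PD1 mouse 5, the mouse low in gastric transcripts, was low in Ptgs1 (18.3 CPM). Untreated mouse 4 of day 35 was high in Ptges (17.7 CPM) and dual ICI mouse 5 of day 21 in Ptger2 (5.78 CPM). The effect of dual ICI on Ptges differed between the uncured mice of day 35 and day 21 by 0.71 on the log2 scale at an unadjusted edgeR p of 0.0259, which did not hold after adjustment over all genes (0.707).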

How the results depend on the processing

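Of 245 alternative values for member fold changes under other settings, 231 kept their direction and side of the threshold, 9 lost the call, 3 gained one and 2 reversed. The reversed values, both on plain library totals, were Ptges in cured against untreated mice (-0.052) and Alox5 in cured against uncured mice (-0.19). With DESeq2 the members called rose from 0 to 1 on day 21 (Ptgds) and from 0 to 1 with all 5 dual ICI mice of day 35 (Alox15), and with all 29 libraries in 1 fit they fell from 7 to 4 in cured against uncured mice. Leaving out 1 library gave 0 to 8 members in cured against anti-PD1 mice, beside 0 to 10746 of all genes. It gave 5 to 8 members in cured against untreated mice, beside 4491 to 9388 of all genes. In untreated mice between the days it gave 1 to 3 members, beside 654 to 4915 of all genes. The 1 came without untreated mouse 5 of day 35. Ptges in cured against untreated lost its call in most alternatives, with 0.38 to 0.70 when 1 library was left out.

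The replicate numbers did not pair the mice (correlations of same-numbered mice from -0.701 to 0.693). With a replicate block, members called on day 21 were 1 in place of 0 (Ptgds, adjusted p 0.025), genes called there were 209 in place of 89, and cured against untreated gave 4016 genes in place of 7067. Best matches with the own number were 2 of 5 mice on day 21. Cured and uncured mice share no number, so no block could be fitted there.

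Among all genes, the day 21 count of 89 was 502 with DESeq2, 15 on plain totals and 6 to 119 with 1 library left out. DESeq2 gave 46 in place of 0 for all 5 dual ICI mice, 17 in place of 0 for the uncured mice, 1 in place of 0 for the interaction, 5920 in place of 2968 against anti-PD1 and 3168 in place of 1687 between the days. Against anti-PD1 the count was also 6355 on plain totals, 7146 with all libraries in 1 fit, 9913 with the block and 0 to 10746 with 1 library left out, and between the days it was 654 to 4915. Plain totals moved the higher and lower calls of cured against untreated mice from 2848 and 4219 to 1187 and 7386, against anti-CTLA4 from 4517 and 5268 to 1619 and 9276, and against uncured mice from 5232 and 5831 to 2314 and 10127. A minimum of 10 counts in every library left no value for Ptgds on day 21. Ptgds in the cured mice rests on at most 12 counts per library.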
